A study of Mus musculus with 2 samples.

Results

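miR-298 and miR-296 are neighbouring miRNA hairpins beside the imprinted Gnas locus, and both arms of each, 4 of the 1915 mature miRNA names in the count table, are described here. They were chosen by a measured difference between 2 libraries: miR-298-5p had the highest log2 ratio of replicate 2 to replicate 1 among the names with at least 1000 counts summed, and the other 3 names were added as its other arm and its neighbour. The question was whether the difference of miR-298-5p was shared by them. Small RNA libraries came from unstimulated BMDMs, macrophages grown from bone marrow in culture with L-cell conditioned medium, of wild type mice of the C57/BL6 strain background at 8 weeks of age. The labels give the libraries as biological replicates of 1 condition, so no treatment or genotype was compared, and nothing in them says whether animals were pooled. The study counts a further library for this experiment, which was not analysed here. The counts summed to 7322969 in replicate 1 and 8094314 in replicate 2.

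A miRNA hairpin is cut into a short duplex, and the strand from either side, the 5p or the 3p arm, can be loaded into an Argonaute protein, where the seed near its 5′ end pairs with target mRNAs. Hairpins that lie close together on a strand are often made from 1 primary transcript. The Gnas locus encodes the stimulatory G protein alpha subunit and is imprinted, meaning that its transcripts come from the maternal or the paternal allele depending on promoter and tissue. Nespas, a noncoding transcript antisense to Nesp, is made from the paternal allele, and miR-296 and miR-298 are known as imprinted miRNAs of the same allele. miR-296 has been studied in endothelial cells and in embryonic stem cells, and mouse miR-298 as a regulator of Bace1, which encodes beta-secretase. The libraries hold no allelic information, and imprinting was not measured.

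The mature sequences are shown because the arms are counted by name and the question turns on whether their reads can be told apart. All 4 names were matched in the RefSeq table for GRCm38.p6. Capitals mark the seed, bases 2 to 8.
mmu-miR-298-5p: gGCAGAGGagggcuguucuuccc
mmu-miR-298-3p: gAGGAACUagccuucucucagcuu
mmu-miR-296-5p: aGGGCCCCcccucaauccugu
mmu-miR-296-3p: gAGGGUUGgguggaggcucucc
The 4 seeds differed from each other, and none was found in another of the 1679 mature names of the table. The sequences were 23, 24, 21 and 22 bases long. The arms of miR-296 and miR-298-5p were rich in G and C (66.7% for miR-296-5p, 68.2% for miR-296-3p and 65.2% for miR-298-5p), and miR-298-3p had 50.0%.

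The hairpins show where each arm lies, with the mature arms in capitals.
Mir298: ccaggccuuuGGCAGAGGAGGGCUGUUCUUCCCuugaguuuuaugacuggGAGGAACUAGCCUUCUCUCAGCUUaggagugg
Mir296: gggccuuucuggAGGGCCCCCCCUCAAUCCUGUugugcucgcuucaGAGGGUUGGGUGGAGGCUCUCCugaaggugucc
Mir298 lies on the minus strand at chr2:174267504-174267585 of GRCm38.p6 and Mir296 at chr2:174267047-174267125 on the same strand, with 378 bases between them, so that miR-298 comes first in the direction of transcription. In the GENCODE M21 annotation 0 genes span the pair. The nearest gene on the minus strand in the direction of Gnas was Nespas (chr2:174281237-174295436), whose annotated 3′ end lay 13652 bases from Mir298, and Gnas itself (chr2:174284320-174346744) is on the plus strand. The hairpins therefore lie downstream of the annotated end of Nespas rather than in an exon or intron of it. No other hairpin of the RefSeq table was found within 100 kb. GENCODE has 1 further miRNA gene there, Gm27591, on the plus strand 19052 bases away, which was not analysed here. The longest run of bases common to both hairpins was 7. Against the 1004 other hairpins of the table, the longest run in common was 11 bases for miR-298-5p, 12 for miR-298-3p, 9 for miR-296-5p and 9 for miR-296-3p, so a full-length read of any of these arms had no identical match elsewhere in the table.

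miR-298-5p was the abundant product of the pair. It had 2141 counts in replicate 1 and 6807 in replicate 2. Scaled to the library total, this was 292 RPM, counts per 1000000 counts of the library (95% Wilson interval 280.2 to 305) and 841 (821 to 861). The mean was 567 ± 388 RPM (SD, n = 2), rank 80 of all names by mean, with rank 106 in replicate 1 and 72 in replicate 2. Intervals cover counting error only. Amplified copies of a molecule were not marked and enter as separate counts, so the intervals can be too narrow even for that. In bulk RNA a change in the cells present cannot be told apart from a change in RNA per cell.

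miR-296-5p, the more abundant arm of the neighbour, had 92 counts in replicate 1 and 204 in replicate 2. These were 12.6 RPM (10.2 to 15.4) and 25.2 (22.0 to 28.9), with a mean of 18.9 ± 8.94 (SD, n = 2) and rank 263. The intervals of the libraries did not overlap, and replicate 2 was the higher. miR-296-3p had 29 and 59 counts, or 3.96 RPM (2.76 to 5.69) and 7.29 (5.65 to 9.40), with a mean of 5.62 ± 2.35 (SD, n = 2) and rank 339. For this arm the intervals overlapped slightly, and replicate 2 was again the higher.

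miR-298-3p, the other arm of the abundant hairpin, was close to absent from the reads. It had 0 counts in replicate 1, where a count of 0 allows up to 0.410 RPM (3 counts), and 1 count in replicate 2, or 0.124 RPM (0.0218 to 0.700). The same pair of counts was held by 74 other names. Whether this arm shared the difference of miR-298-5p was not detectable at this depth, and no ratio is given for it.

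**Figure D1:**
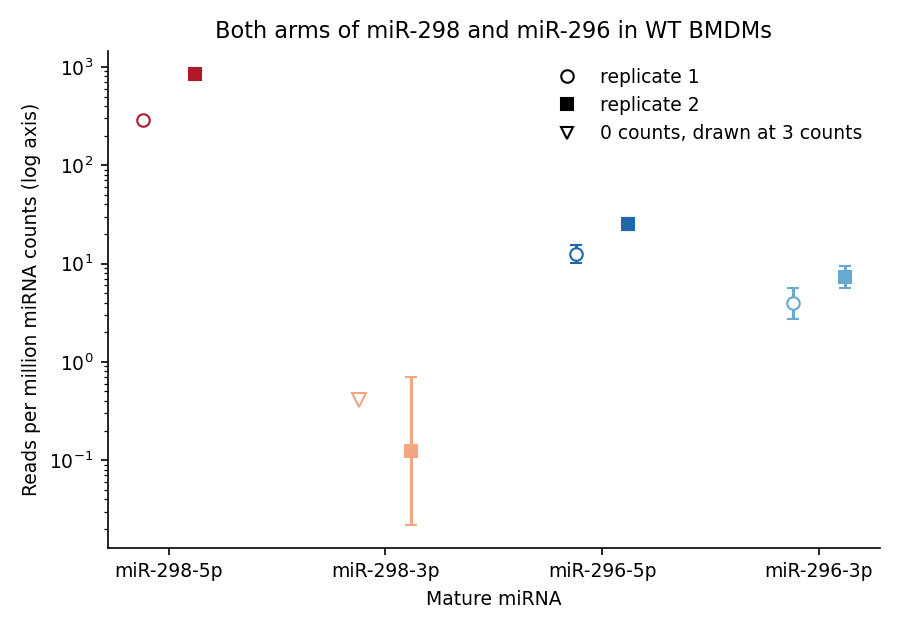
RPM, on a log axis, of both arms of miR-298 and miR-296 in replicate 1 (open circles) and replicate 2 (filled squares) of WT BMDMs, with 95% Wilson intervals; the triangle stands for 0 counts and is drawn at 3 counts. miR-298-5p, miR-296-5p and miR-296-3p were each higher in replicate 2, and miR-298-3p had at most 1 count.

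In order of mean level, miR-298-5p stood far above miR-296-5p, miR-296-5p above miR-296-3p, and miR-298-3p last, and this order held in both libraries. Among all names, miR-298-5p lay between let-7e-5p (608 ± 88.1 RPM, SD, n = 2) and miR-107-3p (568 ± 29.2, SD, n = 2) above and miR-17-5p (548 ± 91.5, SD, n = 2) and miR-34a-5p (534 ± 16.8, SD, n = 2) below. The place of miR-298-5p among them holds for the mean alone: it was below all 4 in replicate 1, where they had 546 to 670 RPM, and above all 4 in replicate 2, where they had 484 to 588. Their log2 ratios between the libraries were small, from -0.34 for miR-17-5p to 0.10 for miR-107-3p. miR-296-5p lay among miR-150-5p, miR-3964, miR-30b-3p and miR-467d-5p, and miR-296-3p among miR-5123, miR-3084-3p, miR-21b and miR-20a-3p, with means that differed from those of the arms by less than the arms' SDs. The log2 ratios of these 8 names ran from -1.34 for miR-150-5p to 0.19 for miR-3964, below the log2 ratio of the arm beside them. For the neighbours of miR-298-5p, all with at least 1000 counts summed, a lower ratio was fixed by its choice.

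Against the spread between the libraries, 3 of the 4 members could be given a ratio, those with at least 10 counts in every library. miR-298-5p, chosen for this value, was 2.88-fold higher in replicate 2 (exact Clopper-Pearson interval 2.74 to 3.02), a log2 ratio of 1.52, and it is a description with no test. miR-296-5p was 2.01-fold higher (1.56 to 2.59), a log2 ratio of 1.00, and miR-296-3p 1.84-fold higher (1.16 to 2.98), a log2 ratio of 0.88. The intervals of both miR-296 arms, of counting error alone, lay above 1.

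These ratios stand against a median of -0.17 and an SD of 0.55 over the 448 names with at least 10 counts in every library. TMM scaling moved that median by 0.12 and DESeq2 size factors by 0.14. The DESeq2 size factors were 1 for both libraries, which leaves the counts unscaled. The ratios are therefore also given relative to the median, where they do not depend on the scaling. Relative to the median, the log2 ratio was 1.70 for miR-298-5p, 1.18 for miR-296-5p and 1.05 for miR-296-3p, which is 3.07, 2.13 and 1.91 times the SD of all names. They ranked 2, 6 and 11 of 448. Above 2-fold higher in replicate 2 were 6 of the 448 names (1.34%), and miR-298-5p and miR-296-5p were among them, while 29 were over 2-fold lower. With TMM, 11 of the 448 were over 2-fold higher, miR-296-3p among them at a log2 ratio of 1.00, and with DESeq2 size factors its log2 ratio was 1.02. With totals without miR-21a-5p, miR-296-5p had a log2 ratio of 0.96 and was no longer over 2-fold higher. By library totals the other 4 were miR-690, miR-100-5p, miR-146a-5p and miR-7043-3p, of which miR-690 (43 and 187 counts, log2 ratio 1.98) and miR-7043-3p are named after their values were seen.

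**Figure D2:**
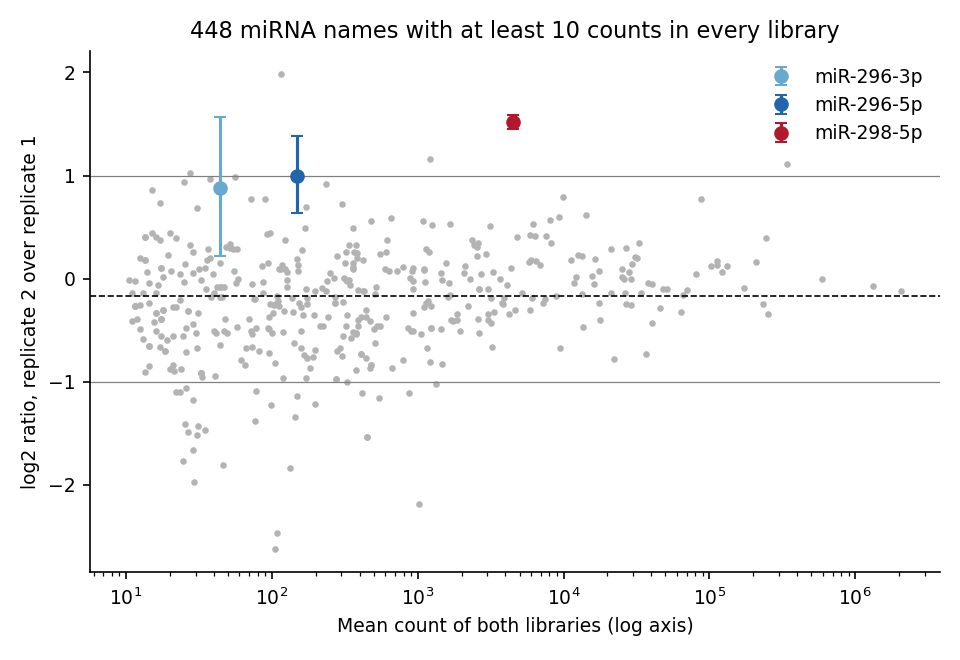
Log2 ratio of replicate 2 to replicate 1 against the mean count (log axis) for 448 miRNA names (grey), with the 3 measurable members in colour and their exact 95% counting intervals; the dashed line is the median of all names and the thin lines mark 2-fold. miR-298-5p (1.52, chosen for its high ratio), miR-296-5p (1.00) and miR-296-3p (0.88) lay above the median of -0.17.

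Ratios scatter more at low counts, and each member was also placed among names of like depth. Of the 86 names with a mean count from 1000 to 10000, whose SD was 0.49, miR-298-5p had rank 1, which its choice fixed. Of the 146 names from 100 to 1000, with an SD of 0.59, miR-296-5p had rank 2, and of the 159 names from 10 to 100, also with an SD of 0.59, miR-296-3p had rank 5.

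By Fisher's exact test (two-sided) of a name's counts against all other counts of each library, with Benjamini-Hochberg adjustment over 588 names, both arms of miR-296 were higher in replicate 2. The adjusted p was 5.3e-08 for miR-296-5p and 0.018 for miR-296-3p. The test compares the libraries, not conditions, and covers counting error only: it called 260 of 588 names (44.2%) in either direction and 81 (13.8%) higher in replicate 2. Since the contrast is the one that led to the choice of miR-298-5p, nothing further is read from 2 calls. The split of all calls depended on scaling, with 81 higher and 179 lower by library totals, 119 higher of 257 calls by TMM and 124 higher of 251 by DESeq2 size factors. Of all names, TMM called 20.2% higher and 23.5% lower, and DESeq2 size factors 21.1% and 21.6%.

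Summed over arms, miR-298 had 292 and 841 RPM, 2.88-fold higher in replicate 2 (2.74 to 3.02), and miR-296 had 16.5 and 32.5, 1.97-fold (1.58 to 2.46). These intervals cover counting error alone, and that of miR-298 rests on the name chosen for its high ratio. Within a library, where no scaling enters, there were 17.7 counts of miR-298 for each count of miR-296 in replicate 1 (exact interval 14.7 to 21.4) and 25.9 in replicate 2 (22.9 to 29.4). For the 5p arms alone the ratio was 1.43 times as high in replicate 2 as in replicate 1 (exact interval 1.10 to 1.85), and for miR-298-5p against miR-296-3p it was 1.56 times as high (0.963 to 2.48). The gap in log2 ratio between the 5p arms was 0.52. The SD of 0.55 over all names is of single names, not of differences between names, and is no measure for this gap. These values rest on miR-298-5p, which was chosen for its high ratio, and are descriptions from which nothing is read.

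The arms of miR-296 kept similar shares of its counts. The 5p arm made up 92 of 121 counts in replicate 1, 76.0% (95% Wilson interval 67.7 to 82.8), and 204 of 263 in replicate 2, 77.6% (72.1 to 82.2), a mean of 76.8% ± 1.08 (SD, n = 2). The odds of 5p to 3p were 1.09 times as high in replicate 2 (exact interval 0.630 to 1.86), and Fisher's exact test (two-sided) gave p = 0.79, a difference not detectable at this depth. This share does not depend on the library total and did not enter the choice of the members.

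miR-298 was far more one-sided. The 3p arm was 0 of 2141 counts in replicate 1, which allows a share of up to 0.140%, and 1 of 6808 in replicate 2, 0.0147% (95% Wilson interval 0.00259 to 0.0832). Among 113 hairpins with both arms listed and at least 1000 counts summed, the more abundant arm held a median of 98.1% of the counts, and it was the 5p arm in 60. In 44 of them it held over 99%, and 6, miR-298 included, were at least as one-sided as miR-298. miR-296, with 384 counts, was below this minimum, and its 77.1% pooled share of the 5p arm was under that median.

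**Figure D3:**
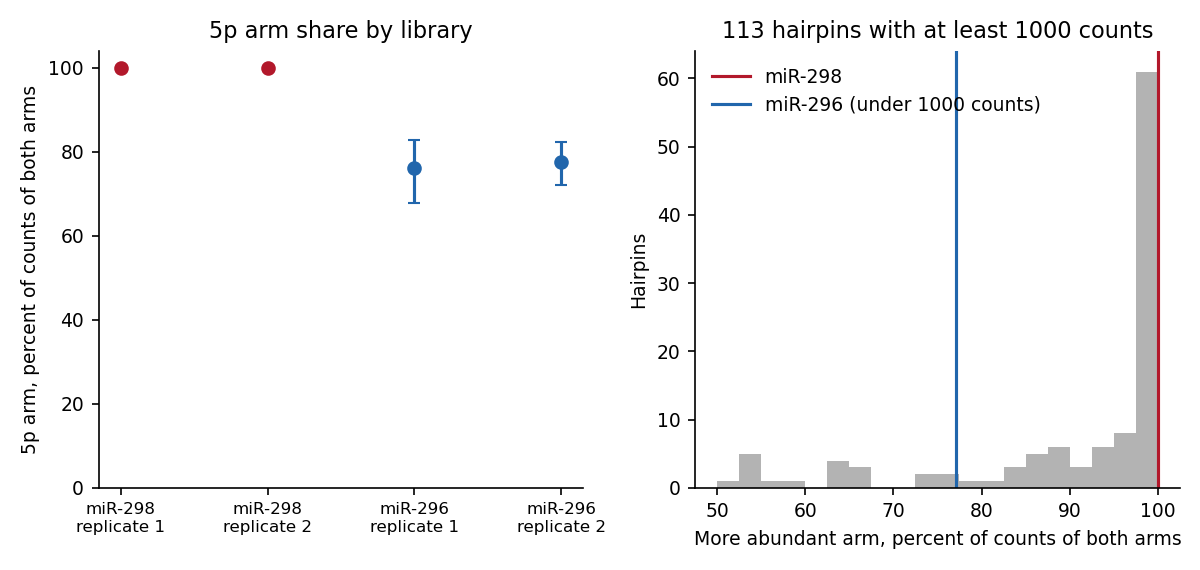
Left, the 5p arm as a percent of the counts of both arms for miR-298 and miR-296 in each library, with 95% Wilson intervals; right, the number of hairpins by the share of their more abundant arm, over 113 hairpins with at least 1000 counts summed. The 5p share of miR-296 was 76.0% and 77.6%, while miR-298 was read almost wholly from its 5p arm.

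The difference was set beside that of other neighbouring hairpins, as a description chosen after seeing the data. There were 32 other pairs of hairpins next to each other on a strand within 10 kb. Pairs that share 12 or more bases in a row were left out. Names of several loci were also left out, though some let-7 names with another hairpin, or with counts equal to another name's, remained. Each hairpin was taken by its more abundant remaining name with at least 100 counts summed. Both names lay on the same side of the median of all names in 18 of the 32. The absolute difference of the log2 ratios within a pair had a median of 0.31, and 23 pairs differed by less than miR-296-5p and miR-298-5p did (0.52). The pair of miR-296-5p and miR-298-5p holds the name chosen for its high ratio, and the other 32 were not chosen so. Nothing is therefore read from the height of its ratios or from the difference between them.

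**Figure D4:**
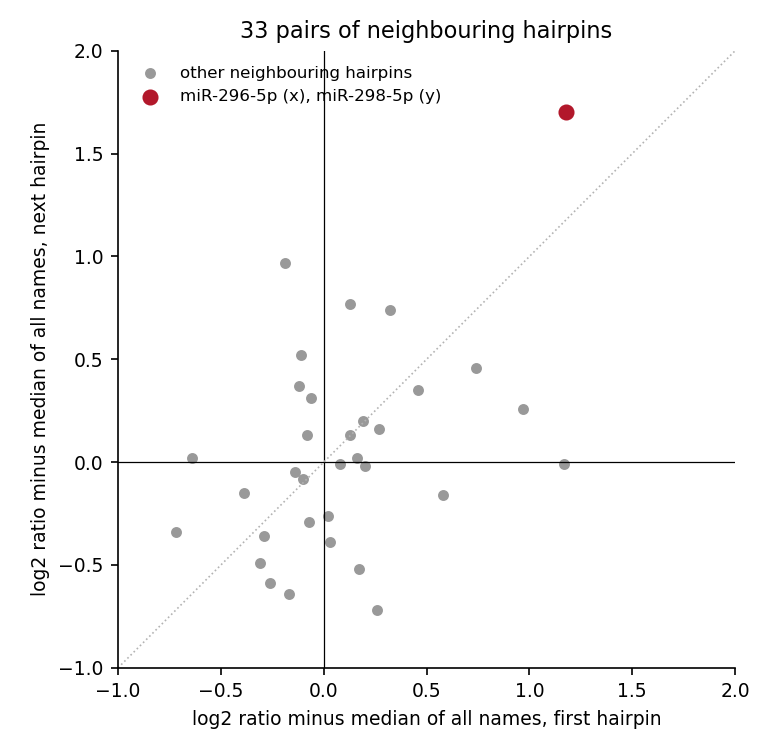
Log2 ratio of replicate 2 to replicate 1, minus the median of all names, for the hairpins of 33 neighbouring pairs, the hairpin with the lower coordinate on the x axis; the dotted line marks equal ratios, and hairpins in longer clusters enter more than 1 pair. miR-296-5p and miR-298-5p (red) lay at 1.18 and 1.70, and miR-298-5p was chosen for its high ratio.

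The names most like miR-298-5p in their ratio, among those with at least 1000 counts summed, were miR-100-5p (log2 ratio 1.16, with 95.6 and 213 RPM), miR-146a-5p (1.11), miR-501-3p (0.79), miR-99b-5p (0.77) and miR-146b-5p (0.62). Likeness was the distance between log2 ratios over 2 libraries, and the nearest of them still lay 0.37 below. miR-146a-5p, induced by Toll-like receptor signalling in macrophages, had 202138 and 482820 counts and was the most abundant of the 5. miR-155-5p, induced by the same signalling and one of the macrophage markers, was lower in replicate 2, with 725 and 359 counts (log2 ratio -1.16).

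Base composition was set beside the ratios across names. A mature sequence was matched for 366 of the 448 names (81.7%), with a median GC content of 50.0%, and all 3 measurable members were above the upper quartile of 57.1%. Across these names Pearson's r of GC content and log2 ratio was -0.05 and Spearman's rho 0.04, descriptions over names that share the same 2 libraries. The 59 other names with a GC content of at least 60% had a median log2 ratio of -0.12. The part of base composition in the difference of the members was not tested.

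Of the other imprinted loci, the 4 that were listed, Mest, H19, Igf2 and Dlk1-Dio3, gave few reads. Of the Mest miRNAs, miR-335-3p had 2 and 4 counts and miR-335-5p had 0 in both libraries, and both arms of miR-675 (H19) and of miR-483 (Igf2) had 0 in both. Of 94 names of the Dlk1-Dio3 cluster, the large maternally expressed miRNA cluster, 19 had a count, and they summed to 34 counts in each library. Its most abundant name, miR-127-3p, had 12 and 11 counts. At these 4 loci 1 name passed the filter of the test and 0 were called, so a shift between the libraries could not be compared there. The imprinted Sfmbt2 gene holds most of the miR-297, miR-466, miR-467 and miR-669 families, which were added after their values were seen. Of their 80 names, 56 passed the filter, and their median log2 ratio was -0.88, away from replicate 2. Of the 56, 0 were called higher and 36 lower (13.8% and 30.4% of all names), and 29 were called lower with TMM (23.5% of all names) and 29 with DESeq2 size factors (21.6%). Several of these near-identical names held equal counts, so they are not independent.

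The labelled cell type was checked against marker miRNAs. The 7 macrophage and myeloid names, led by miR-21a-5p, were all present and summed to 356986 and 354503 RPM, with 1 of the 7 called higher in replicate 2 (miR-146a-5p) and 6 lower, where 13.8% of all names were called higher and 30.4% lower. The calls depended on scaling: miR-21a-5p, with a log2 ratio of -0.12 by library totals, was at 0.00 and not called with TMM, and at 0.02 and called higher with DESeq2 size factors. The other 5 were called lower under both. The myeloid miR-223-3p had 6053 and 4485 RPM.

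Marker lists of other cells were far lower. In RPM, the 4 erythroid names summed to 542 and 456, almost all of it miR-486a-5p, while miR-451a had 7 and 8 counts. The lymphocyte miR-150-5p was at 27.6 and 10.9. The 2 endothelial names summed to 62.5 and 46.2, led by miR-126a-5p. The 6 stromal and smooth muscle names summed to 239.7 and 161, led by miR-143-3p. The part of these 4 lists in the difference of miR-298-5p was not tested.

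The remaining lists were level or too low to compare. The 6 epithelial names summed to 171 and 185 RPM, with miR-200b-3p, the most abundant, called higher in replicate 2 (log2 ratio 0.59) and 2 of the 5 tested called lower, beside 13.8% and 30.4% of all names. With TMM or DESeq2 size factors 1 was called higher and 1 lower, where the shares of all names were 20.2% and 23.5%, or 21.1% and 21.6%. The islet miR-375-3p had 5 and 11 counts and was not called. The 5 skeletal and cardiac muscle names summed to 1 and 6 counts, led by miR-133a-3p, with miR-1a-3p, miR-206-3p and miR-208a-3p at 0. The 8 pluripotent names summed to 1 and 1, with 6 of them at 0. The liver miR-122-5p and the neural miR-124-3p were at 0 in both libraries, and the neural miR-9-5p had 12 and 11 counts. The part of the epithelial and islet signal in the difference of miR-298-5p was not tested.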

How the data were processed

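Small RNA of unstimulated WT BMDMs was sequenced after rRNA depletion, and 2 libraries were analysed here. After trimming, reads were aligned by the authors with Bowtie against the mouse hairpins of miRBase, and they deposited raw counts per mature miRNA name, without normalization. The release and the treatment of reads with several matches are not given in the sources used here. Adapter ligation and PCR favour some sequences, so counts are not molecules.

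Counts were scaled by library totals to RPM. Names with at least 10 counts summed were tested by Fisher's exact test between the libraries, adjusted by Benjamini-Hochberg at 0.05, with SciPy 1.17.1. Ratios carry exact Clopper-Pearson intervals and shares Wilson intervals at 95%. Scaling alternatives were TMM (edgeR 4.0.16) and DESeq2 1.42.0 size factors, both in R 4.3.3. The size factors came out at 1 for both libraries, so that setting compares unscaled counts. Others were totals without miR-21a-5p, other count minimums, equal counts counted once, summed or single arms, pooled counts and each library alone. Sequences came from RefSeq (GRCm38.p6).

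The members and lists were chosen with earlier results of these data known. Names in the text were the 4 members, names sharing a seed, miRNAs within 100 kb, the 2 names above and below each arm in level, the 5 names nearest miR-298-5p in ratio, imprinted-locus miRNAs and cell type markers. Besides these, miR-690 and miR-7043-3p were named after their values were seen. miR-298-3p, whose level is tied with many names, was given no neighbours in level.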

Additional observations from a re-analysis of the deposited data

How the results depend on the processing

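No paired analysis was possible because both libraries belong to a single group. The log2 ratio of miR-298-5p between the libraries was 1.65 with TMM and 1.67 with DESeq2 size factors, in place of 1.52, because these scalings shift every name by the same amount. The ratio of miR-298 to miR-296 counts, 21.8 on average with both arms, was 28.3 over the 5p arms and 0.00847 over the 3p arms, where miR-298-3p had at most 1 count. Of the names with at least 10 counts in every library, 35 were over 2-fold apart; with at least 10 counts summed there were 91, and with at least 100 in every library 12. The other 50 recomputed values include every alternative for both arms of miR-296, which kept their direction and an adjusted p under 0.05. Both arms changed side of 2-fold. miR-296-5p fell to a log2 ratio of 0.96 with totals without miR-21a-5p, and miR-296-3p rose to 1.00 with TMM and 1.02 with DESeq2 size factors. The rest moved by less than the spread between the libraries or, for miR-298-5p between the libraries, the counting interval. Leaving out 1 of 2 libraries always moves a mean by less than its SD, so nothing is read from those values.

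With 2 libraries of 1 condition, each mean rests on a single difference. The level of miR-298-5p was 292 RPM without replicate 2 and 841 without replicate 1. miR-296-3p, with 29 and 59 counts, limits the comparison of arms, and miR-298-3p gave too few reads for a ratio.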
